A study of Homo sapiens with 8 samples.

Results

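The comparison set the crude extract of a medicinal seed against one pure compound from it, each at its highest dose. EEDS is an ethanol extract of *Descurainia sophia* seeds, and helveticoside is a cardiac glycoside that the study isolated from this extract together with several flavonol glycosides. A549 cells, an established human lung adenocarcinoma line, were exposed to EEDS at 1.25, 5 or 20 μg/mL or to helveticoside at 3.75, 15 or 60 nM, and each series had a vehicle control of its own. Each of the 8 conditions was measured on 1 one-colour Agilent array loaded with RNA pooled from 3 cultures. The comparison used 4 of the 8 arrays, namely EEDS vehicle, EEDS 20 μg/mL, helveticoside vehicle and helveticoside 60 nM. The sample labels give 48 h of treatment, whereas the methods of the study give a shorter exposure for the arrays.

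For every gene, D was the log2 ratio of EEDS 20 μg/mL to its vehicle minus the log2 ratio of helveticoside 60 nM to its vehicle. A D of 1 therefore means that the EEDS response was 2-fold higher, whether the gene rose more or fell less. The members were the genes whose probe was well above background on all 4 arrays, which were 11816 of 19053 genes on the array. All 6 epithelial markers examined (EPCAM, KRT8, KRT18, KRT19, KRT7 and CDH1) were members, against 2 of 9 fibroblast and endothelial markers and 3 of 6 leukocyte markers. With 1 array per condition no test of D at the top dose exists, so D is described by its size. The doses were set in different units and were not matched, and agent and series cannot be told apart, since no vehicle array was common to both agents.

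Cardiac glycosides bind the sodium pump (Na+/K+-ATPase) of the plasma membrane and block it, so that sodium and calcium rise in the cell and potassium falls. Sustained block is known to induce immediate early genes, which are transcribed within minutes of a stimulus without new protein synthesis, and to lower protein synthesis in human cells. Immediate early genes include FOS, FOSB and JUN, whose proteins pair as the transcription factor AP-1, and EGR1, a zinc finger factor. Many of their transcripts are short-lived, so their levels follow current transcription and decay closely.

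The promoters of 4 genes that the results turn on are printed first. They are the 250 bases before the RefSeq start site on build GRCh38.p14, read 5′ to 3′ on the strand of the gene, with matches to the searched motifs in capitals, except GC boxes (GGGCGG) and antioxidant response elements (TGACNNNGC), which are frequent and were left in lower case. FOS and EGR1 had among the largest D. NFKBIA, which encodes the inhibitor that holds NF-kappa B in the cytoplasm, lay just past the 2-fold line. CHAC1, which encodes an enzyme that degrades glutathione and is a target of the stress factor ATF4, had the second smallest D.
EGR1, chr5:138465229-138465478, + strand: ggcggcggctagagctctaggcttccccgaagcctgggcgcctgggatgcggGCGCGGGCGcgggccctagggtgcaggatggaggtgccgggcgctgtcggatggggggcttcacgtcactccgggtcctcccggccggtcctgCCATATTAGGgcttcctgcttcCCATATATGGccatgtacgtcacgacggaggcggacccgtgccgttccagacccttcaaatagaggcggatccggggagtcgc
FOS, chr14:75278578-75278827, + strand: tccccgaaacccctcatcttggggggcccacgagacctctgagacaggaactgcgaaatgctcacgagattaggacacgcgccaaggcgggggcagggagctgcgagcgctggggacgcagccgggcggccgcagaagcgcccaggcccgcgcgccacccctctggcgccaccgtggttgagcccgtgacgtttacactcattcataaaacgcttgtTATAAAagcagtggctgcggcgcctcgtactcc
NFKBIA, chr14:35404750-35404999, - strand: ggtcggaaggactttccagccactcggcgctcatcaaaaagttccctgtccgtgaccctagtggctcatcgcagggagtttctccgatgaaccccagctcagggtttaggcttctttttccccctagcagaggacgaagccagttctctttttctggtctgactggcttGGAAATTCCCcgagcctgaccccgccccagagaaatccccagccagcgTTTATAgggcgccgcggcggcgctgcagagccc
CHAC1, chr15:40953221-40953470, + strand: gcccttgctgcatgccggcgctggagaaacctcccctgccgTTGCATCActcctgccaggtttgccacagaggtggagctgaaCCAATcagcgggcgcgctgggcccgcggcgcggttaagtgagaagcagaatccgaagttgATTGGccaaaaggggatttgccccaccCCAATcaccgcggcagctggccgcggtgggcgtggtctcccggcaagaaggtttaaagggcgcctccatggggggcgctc
The capitals of EGR1 mark an EGR site (GCGNGGGCG, on either strand) and a pair of CArG boxes, the motif of serum response factor, which start 105 and 83 bases before the start site. In FOS they mark a TATA box (TATAAA) beginning 33 bases before the start site. NFKBIA held an NF-kappa B site on the opposite strand and a TATA box on the opposite strand. CHAC1 held the composite C/EBP-ATF element (TGATGNAA, read on the opposite strand) 209 bases before the start site and 3 CCAAT boxes (CCAAT on either strand). A match describes these letters only.

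Both agents moved largely the same genes in the same direction. EEDS 20 μg/mL raised 14.6% of members and lowered 15.8% at least 2-fold, and helveticoside 60 nM raised 11% and lowered 13%. The largest rises that were close to equal (D within 0.5 of 0) were those of LY6K, which encodes a surface protein of the Ly6 family, CCN1, a secreted matrix protein and immediate early gene, SMOX, which oxidises spermine, GREM1, a secreted inhibitor of bone morphogenetic proteins, and the cytokine gene IL11. LY6K rose 18.4-fold with EEDS and 19.6-fold with helveticoside, and CCN1 rose by 4.17 and 3.97 log2 units. On the falling side stood the homeobox gene HOXB13, GPRIN2, BCAS1, the chaperone gene HSPA8 and the ganglioside synthase gene B4GALNT1. HOXB13 was 32.0-fold lower with EEDS and 25.4-fold lower with helveticoside, and HSPA8 was 19.9-fold and 17.8-fold lower. Most of these falls were not close to equal under every alternative. D of HOXB13 and GPRIN2 was -1.98 and -1.28 with the deposited value table. From the lowest dose as baseline, D of HSPA8 and B4GALNT1 was 1.23 and 1.59. BCAS1 and the named rises stayed within 2-fold in both. In all, 1103 genes were at least 2-fold higher with both agents and 1305 were at least 2-fold lower with both.

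**Figure D1:**
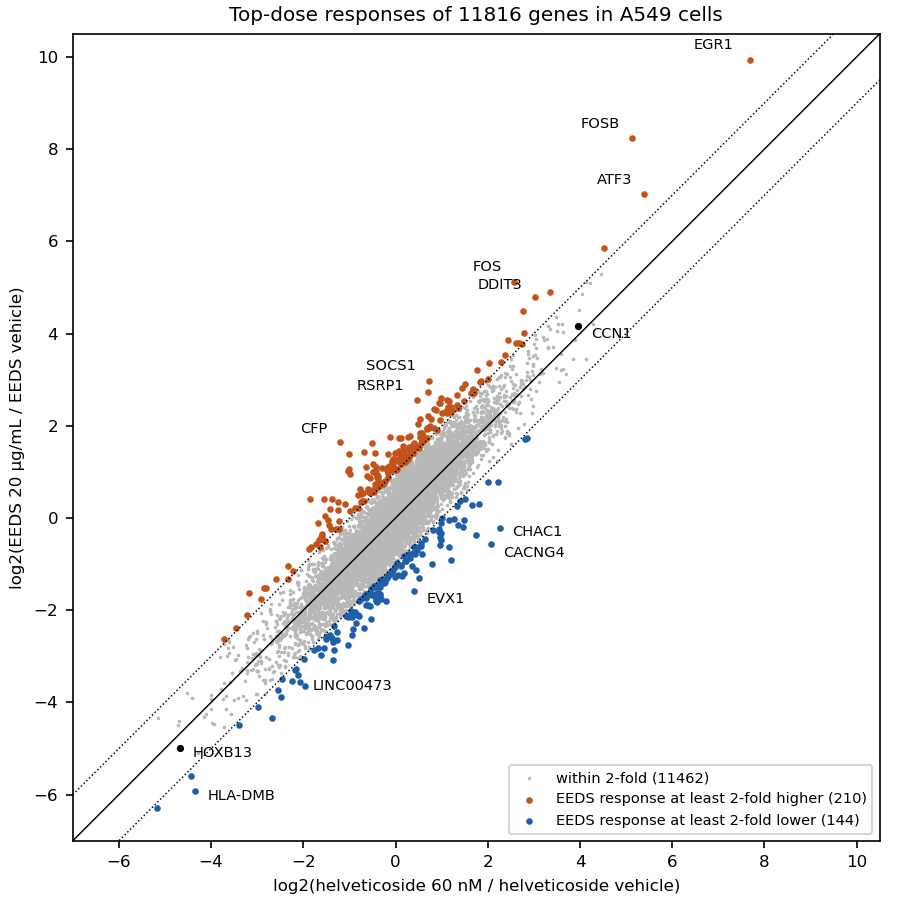
Log2 ratio of top dose to vehicle for each of 11816 genes, with helveticoside 60 nM on the x axis and EEDS 20 μg/mL on the y axis, 1 point per gene and 1 array per condition. The solid line marks equal responses and the dotted lines a 2-fold difference (D of 1 and -1). Most points lie within the dotted lines, and EGR1, FOSB, ATF3 and FOS stand above them on the side of genes that rose with both agents.

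The difference between the agents was small for most genes. D had a SD of 0.42 on the log2 scale, against SDs of 1.09 and 0.96 for the ratios of EEDS and helveticoside themselves. At least 2-fold differences were found for 354 genes, 210 with the EEDS response higher (1.78% of members) and 144 with it lower (1.22%), and 97.0% of members lay within 2-fold. At 4-fold there were 13 and 4. Of the 210, 95 were at least 2-fold higher with EEDS only and 39 with both agents. A further 26 were at least 2-fold lower with helveticoside only, 11 lower with both, 3 opposite and 36 past 2-fold with neither. Of the 144, 65 were at least 2-fold lower with EEDS only and 35 with both agents. A further 18 were at least 2-fold higher with helveticoside only, 2 higher with both and 24 past 2-fold with neither. The value of a gene is that of its brightest probe, and other probes often gave another size. Of 44 genes past 2-fold upward with more than 1 probe well above background, 38 had the same sign by every probe and 13 passed 2-fold by every probe. Of 20 such genes past 2-fold downward, 12 had the same sign and 1 passed 2-fold by every probe. Among genes at least 2-fold higher with both agents, 770 of 1103 rose more with EEDS (median D 0.15), and among those at least 2-fold lower with both, 865 of 1305 fell more with EEDS (median D -0.14). Across genes the ratios of EEDS followed those of helveticoside with an orthogonal-regression slope of 1.15. Multiplying the helveticoside ratios by this slope gave 253 higher and 147 lower, of which 176 and 109 were among the 210 and 144. The split between directions depended on the scaling, since scaling each array to its 75th percentile moved the median D of all members to -0.10 and gave 197 higher and 338 lower, and the deposited value table gave 365 and 409.

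The arrays also showed how large a difference could arise without the top dose. The vehicle arrays of the 2 series differed from each other with a SD of 0.49, and 442 members were at least 2-fold higher and 154 at least 2-fold lower in the helveticoside vehicle. At the lowest doses the same difference of ratios passed 2-fold for 391 genes upward and 172 downward, more than at the top dose. At the middle doses it did so for 138 and 87 genes. These 3 sets share the vehicle arrays. Of the 210 genes with D of at least 1, 32 had a 2-fold gap between the vehicle arrays and not the treated ones, 93 had one between the treated arrays and not the vehicles, 3 had both and 82 had neither. Of the 144 with D of at most -1, 92 had it between the treated arrays only and 6 between the vehicles only. Calls were also more frequent among dim genes, with 5.69% past 2-fold in either direction among the 2954 dimmest members and 1.76% among the 2954 brightest.

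Replacing the vehicle by the lowest-dose array of each series gave a second baseline that shares only the treated arrays with the first. Of the 210 genes, 159 had the same sign with the second baseline and 68 were again at least 2-fold higher. Of the 144, 128 had the same sign and 61 were again at least 2-fold lower. These 129 genes rest on the same pair of treated arrays, so the second baseline says nothing about error in those. A further comparison, the middle over the lowest dose of EEDS minus the same for helveticoside, shares no array with D. It was above 0 for 98 of the 210 genes (46.7%) and for 48.7% of all members, and it was below 0 for 83 of the 144 (57.6%) and for 51.3% of all members. Its Pearson's r with D was 0.0012 across the 11816 genes, which are not independent replicates and were normalised together. Over the genes as a whole, the differences at the top dose did not recur in the step between the lower doses.

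**Figure D2:**
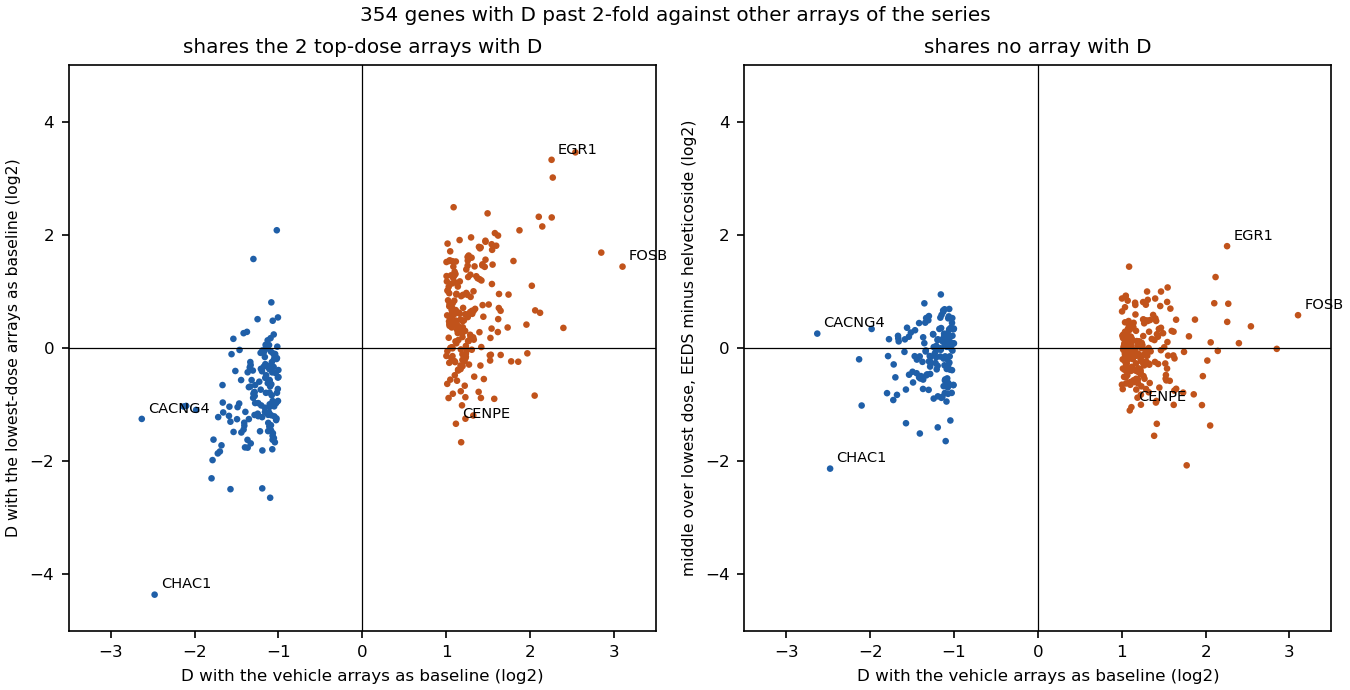
The 354 genes with D past 2-fold (x axis, log2, vehicle baseline) against D with the lowest-dose arrays as baseline (left, y axis, log2) and against the difference between agents in the step from lowest to middle dose (right, y axis, log2). Each point is a gene, orange for D above 0 and blue for D below 0. On the left 159 of 210 orange and 128 of 144 blue points keep their sign, whereas on the right both colours spread around 0.

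Transcription factors of the AP-1 family and other immediate early genes held several of the largest differences towards EEDS. Of 13 AP-1 genes measured, 11 had D above 0, against 47.7% of all members, and the median D was 0.35, against -0.02 for all members. FOSB, FOS and ATF3, a stress-induced partner of the family, passed 2-fold, and JDP2, which encodes a repressor of AP-1, passed it in the other direction. Of 19 other immediate early genes, 14 had D above 0 and the median was 0.58. Of these 19, 4 passed 2-fold upward (21.1%, against 1.78% of all members) and 0 downward (1.22% of all members). The AP-1 shares were 23.1% and 7.69%. Each agent raised 10 of the 13 AP-1 genes and 15 of the 19 at least 2-fold. Among all genes that rose so with both agents, 770 of 1103 had D above 0, which is a nearer comparison than 47.7%. With the lowest-dose baseline the medians were 0.41 and 0.63, and with 75th-percentile scaling they were 0.55 and 0.19. With the helveticoside ratios scaled by the slope of 1.15 they were 0.10 and 0.29.

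The level of FOSB was 5.36 on the EEDS vehicle array, 13.60 with EEDS 20 μg/mL, 6.26 on the helveticoside vehicle array and 11.40 with helveticoside 60 nM, in log2 units of normalised signal. FOSB thus rose 301-fold with EEDS and 35.1-fold with helveticoside, and its D of 3.10 was the largest of all members, although the EEDS vehicle array was also the lower of the 2 controls. From the lowest-dose baseline its D was 1.44. FOS stood at 9.26, 14.38, 8.38 and 10.96 on the same 4 arrays, which is a 34.8-fold rise with EEDS and a 5.97-fold rise with helveticoside (D 2.54, and 3.46 from the lowest-dose baseline). For FOS the difference appeared between the middle and the top dose, since D was -0.92 at the lowest and -0.54 at the middle doses. EGR1 showed the largest rise of these genes with either agent. Its levels were 6.88, 16.82, 6.06 and 13.74, which made a 982-fold rise with EEDS and a 206-fold rise with helveticoside (D 2.26, and 3.33 from the lowest-dose baseline). ATF3 stood at 8.86, 15.88, 8.27 and 13.67 (D 1.63), and the 3 of its 4 probes that were well above background gave D of 0.71, 1.63 and 1.97. For ATF3 the 2-fold difference was lost from the lowest-dose baseline (0.71) and with the helveticoside ratios scaled (0.81). JDP2 fell from 12.47 to 11.33 with EEDS and stood at 11.98 and 12.41 on the helveticoside arrays (D -1.57, and -2.50 from the lowest-dose baseline). At the lowest doses JDP2 stood at 13.45 with EEDS and 12.03 with helveticoside, so the second baseline also counts this earlier rise with EEDS.

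The immediate early genes past 2-fold beside EGR1 were ZFP36, PPP1R15A and NAB2. ZFP36, whose protein binds AU-rich elements and promotes decay of the messenger RNA, stood at 13.12 and 15.67 on the EEDS arrays and at 12.63 and 13.78 on the helveticoside arrays (D 1.39). PPP1R15A (GADD34), which directs a phosphatase to the translation factor eIF2α, rose 58.3-fold with EEDS and 22.9-fold with helveticoside (D 1.34, but 0.69 from the lowest-dose baseline and 0.66 with the helveticoside ratios scaled). NAB2, a corepressor of EGR1, had a D of 1.01, which 5 alternatives of scaling or normalisation took below 1 (0.71 to 0.99). EGR3 and EGR4 were well above background with EEDS 20 μg/mL only, and EGR2 on both top-dose arrays only, so they were not members. Detection was more frequent among all genes with EEDS 20 μg/mL (70.3%) than with helveticoside 60 nM (65.9%). The remaining immediate early genes were closer together. BTG2, IER5 and IER2 had D of 0.94, 0.99 and 0.88, whereas CCN1 and CCN2 had 0.21 and -0.03 and the serum response factor gene SRF -0.27. Of 12 MAP kinase phosphatase and Sprouty genes, which damp MAP kinase signalling, 10 had D above 0 (median 0.33). DUSP8 (1.26) and DUSP9 (1.06) passed 2-fold (16.7%, against 1.78% of all members). DUSP8 stood at 11.57 and 13.01 on the EEDS arrays and at 12.05 and 12.23 on the helveticoside arrays, but its second measured probe gave a D of 0.05 and the mean of its probes 0.66. DUSP9, a dim gene at 5.76 and 6.51 on the EEDS arrays, had a D of 0.09 with the signal as scanned, 0.11 with normexp and 0.73 from the lowest-dose baseline.

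**Figure D3:**
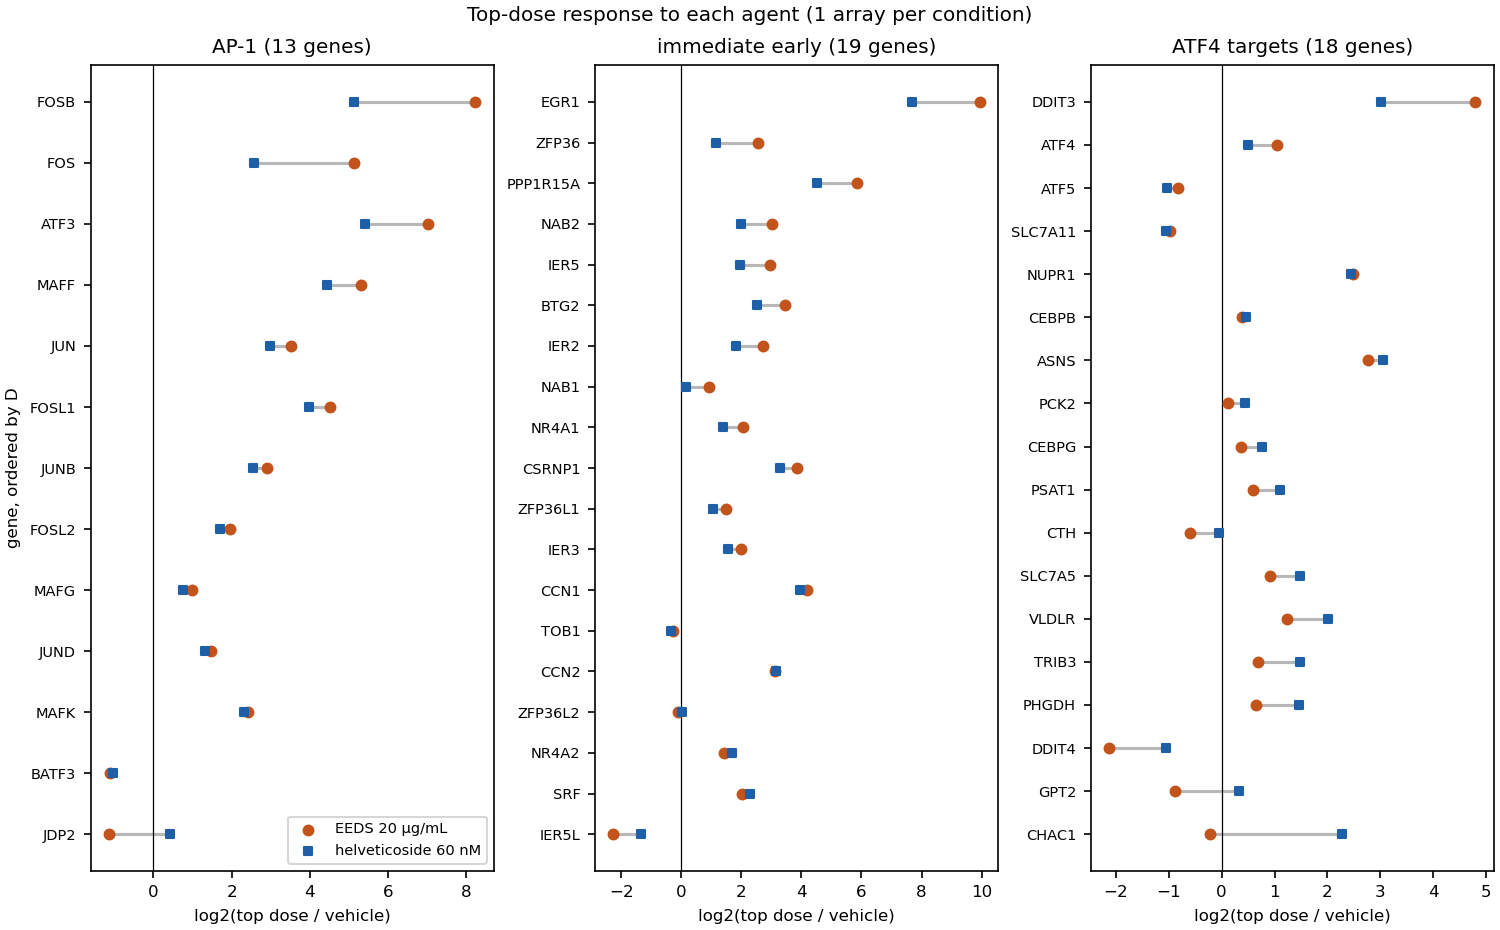
Log2 ratio of top dose to vehicle (x axis) for each measured gene (y axis, ordered by D) of the AP-1 family, the other immediate early genes and the ATF4 targets, with EEDS 20 μg/mL as circles, helveticoside 60 nM as squares and a grey bar for the difference D. Circles lie to the right of squares for 11 of 13 AP-1 genes and 14 of 19 immediate early genes, and to the left for most ATF4 targets, with DDIT3 as the widest exception.

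Among genes of cytokine and NF-kappa B signalling, 3 of 15 in the NF-kappa B list passed 2-fold upward (20.0%, against 1.78% of all members). In the interferon-response list 1 of 21 did (4.76%). SOCS1, a gene of neither list, had one of the largest D. SOCS1, an inhibitor of JAK-STAT signalling that is itself induced by cytokines, stood at 5.89, 5.94, 6.35 and 8.88 on the 4 EEDS arrays in order of dose and at 6.35, 6.45, 6.40 and 7.08 on the 4 helveticoside arrays. The 6 arrays below the top dose lay within 5.89 to 6.45, and only the EEDS 20 μg/mL array stood well above them (D 2.26, and 2.31 from the lowest-dose baseline). These low levels are dim, and SOCS1 was not well above background on every array of the lowest and middle doses. Its D was 1.43 with the signal as scanned and 1.39 with normexp. IRF1, a transcription factor of the interferon response, rose 5.63-fold with EEDS and 1.93-fold with helveticoside (D 1.54). The other 20 measured interferon-response genes held no 2-fold difference and the list's median was -0.26. NFKBIA stood at 14.04 and 15.38 on the EEDS arrays and at 13.56 and 13.78 on the helveticoside arrays (D 1.11). NFKBIE, a second inhibitor of the family, and the subunit gene REL had D of 1.11 and 1.12. Each of these 3 fell below 2-fold under some alternatives, NFKBIA with 75th-percentile scaling (0.86) and the deposited table (0.91), and NFKBIE and REL from the lowest-dose baseline (0.67 and 0.95) and with the helveticoside ratios scaled (0.71 and 0.84). Of 15 NF-kappa B genes 12 had D above 0 with a median of 0.31, but from the lowest-dose baseline the median was -0.12 and with the helveticoside ratios scaled 0.12. The same held for 10 cytokine and chemokine genes, whose median was 0.53 from the vehicle and -0.22 from the lowest dose. CXCL3 turned from 1.52 to -0.13. On the array were 27 such genes, and those not well above background on all 4 arrays were left out of D. Of them, IL1A, IL6 and CSF2 were well above background with EEDS 20 μg/mL only, and CXCL11 with helveticoside 60 nM only. CCL20, TNF and LTB were so on both top-dose arrays and neither vehicle array. In the NF-kappa B list TRAF1 was so with EEDS 20 μg/mL only. Of all genes, 70.3% were well above background with EEDS 20 μg/mL and 65.9% with helveticoside 60 nM. The share of all genes detected on only 1 of the arrays is not given, so these calls describe detection only.

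Single regulators from other lists also differed at the top dose above all. PER1, a clock gene that also responds to stimuli within minutes to hours, stood at 8.40 and 13.30 on the EEDS arrays and at 7.55 and 10.90 on the helveticoside arrays (D 1.55). KLF2, a Kruppel-like factor, had levels of 10.38, 11.67, 9.75 and 9.97 (D 1.08). SNAI1, which represses E-cadherin in epithelial cells, had levels of 11.06, 12.07, 10.87 and 10.42 (D 1.47). CYP1B1, a cytochrome P450 induced through the aryl hydrocarbon receptor, stood at 10.25 and 10.59 on the EEDS arrays and at 10.83 and 9.57 on the helveticoside arrays. Its D of 1.60 thus came mainly from a 2.39-fold fall with helveticoside, and a second probe gave 1.79. No other gene of the 10 measured receptor targets passed 2-fold (median D 0.03). CYP1A1, another target, was well above background on both top-dose arrays and neither vehicle array, so it was not a member. For SOCS1, ZFP36, NFKBIA, PER1, KLF2, SNAI1 and CYP1B1 alike, D at the lowest and middle doses lay between -0.47 and 0.41.

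**Figure D4:**
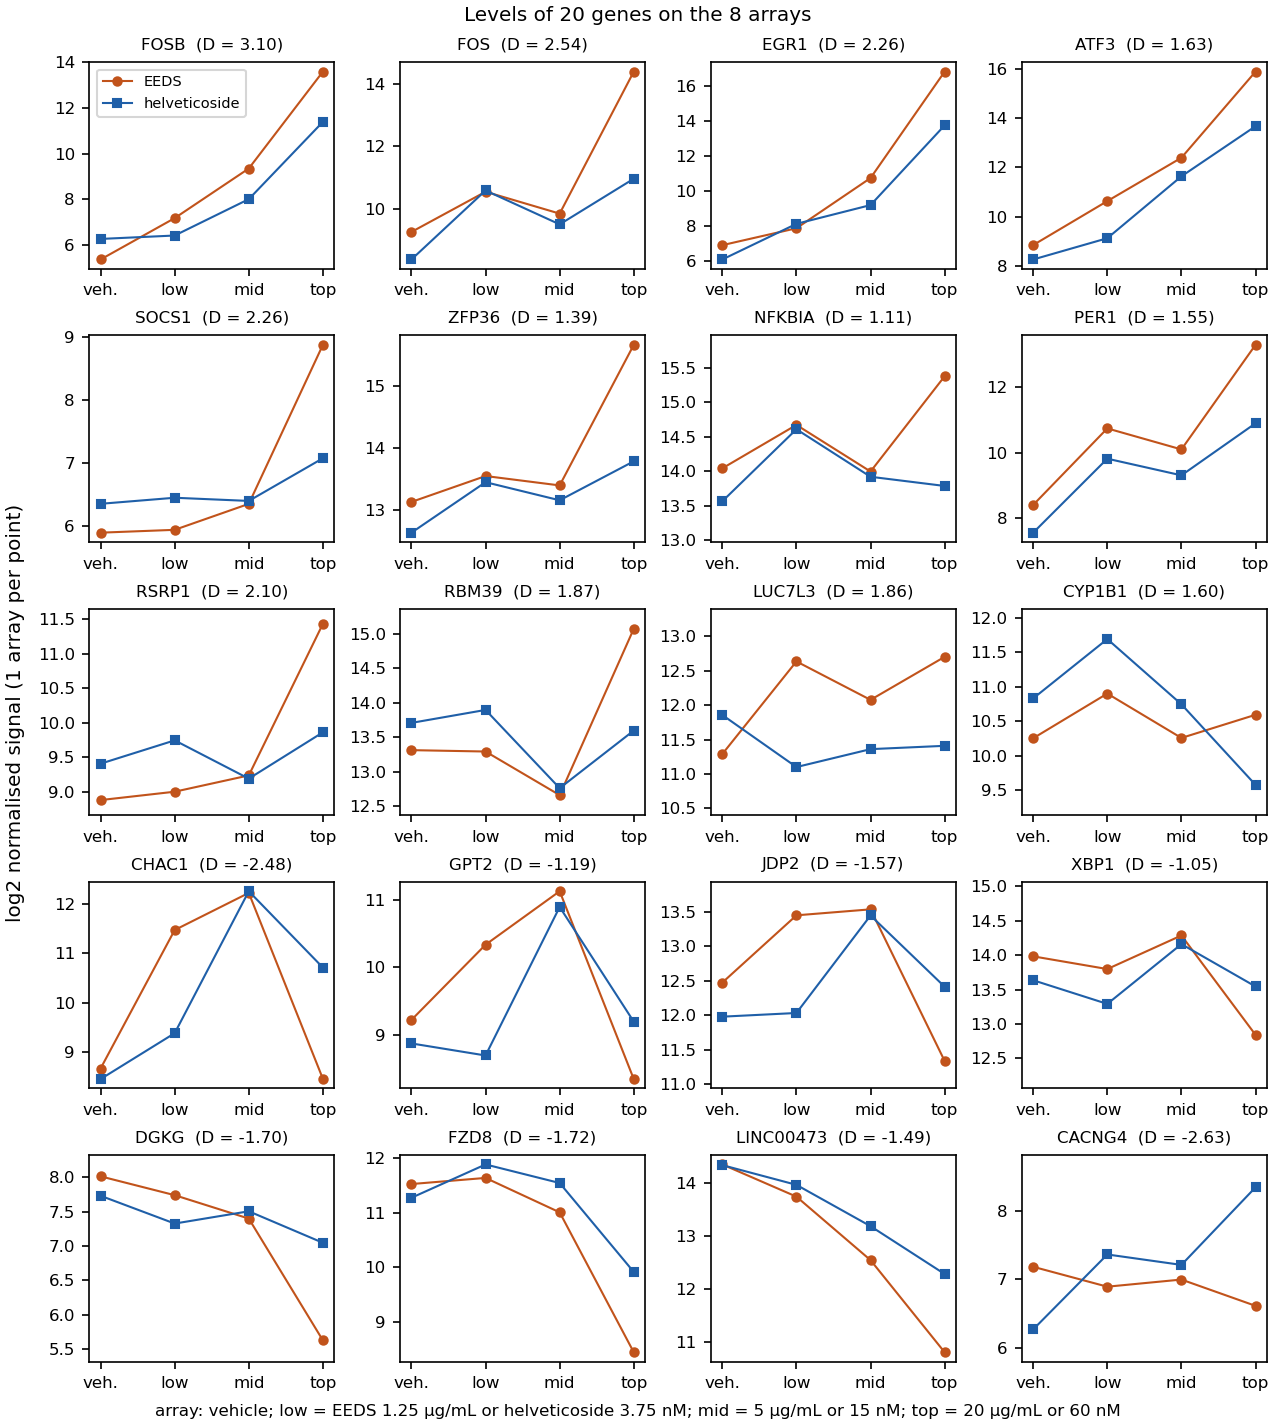
Levels of 20 genes (y axis, log2 normalised signal) on the 4 EEDS arrays (orange circles) and the 4 helveticoside arrays (blue squares) from vehicle to top dose (x axis), 1 array per point. SOCS1, ZFP36, NFKBIA, RSRP1 and RBM39 differ at the top dose above all, CHAC1, GPT2 and JDP2 are high at the middle dose of both agents and low again at the top dose of EEDS, and LUC7L3 differs from the lowest dose on.

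Splicing regulators leaned towards a higher EEDS than helveticoside response as a group. This list of 55 genes of SR proteins, heterogeneous ribonucleoproteins and CLK kinases was drawn up after RSRP1, RBM39 and LUC7L3 had been seen among the largest D, so its counts describe it only. Of the 55, 13 passed 2-fold upward (23.6%, against 1.78% of all members) and 0 downward (1.22% of all members), 48 had D above 0 (87.3%, against 47.7%) and the median D was 0.49 (0.32 from the lowest-dose baseline and 0.47 with 75th-percentile scaling). RSRP1, which encodes an arginine- and serine-rich protein, stood at 8.88 and 11.44 on the EEDS arrays and at 9.41 and 9.86 on the helveticoside arrays (D 2.10). RBM39, a U2AF-related splicing factor, stood at 13.31 and 15.07 and at 13.71 and 13.60 (D 1.87), and its other probes gave 1.63 and 1.63. The rise was thus seen with EEDS and not with helveticoside for RBM39. For other members of the group the gap came, by their brightest probe, from a fall with helveticoside. SRSF2, a classical SR protein, changed by -0.34 with EEDS and by -1.60 with helveticoside. A second probe of SRSF2 changed by 0.73 and -0.76 (D 1.49), so it rose with EEDS. HNRNPDL changed by -0.11 with EEDS and -1.69 with helveticoside, although a second probe of HNRNPDL gave a D of 0.79. TRA2A had D of 1.30 and PRPF38B 1.46, and CLK1, a kinase that phosphorylates SR proteins, had 1.10 by one probe and 0.37 by another.

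Not every splicing gene kept its difference with another baseline. LUC7L3, PRPF39 and ARGLU1 had D of 1.86, 1.62 and 1.65 from the vehicle but -0.24, 0.28 and -0.12 from the lowest dose. Their levels already differed at the lowest dose, where LUC7L3 had reached 12.63 with EEDS and 11.10 with helveticoside. HNRNPA1, an abundant nuclear ribonucleoprotein, fell alike with both agents (-1.88 and -1.92). SNHG12, a noncoding host gene of small nucleolar RNAs, had a D of 1.63 and 0.96 with the second baseline.

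**Figure D5:**
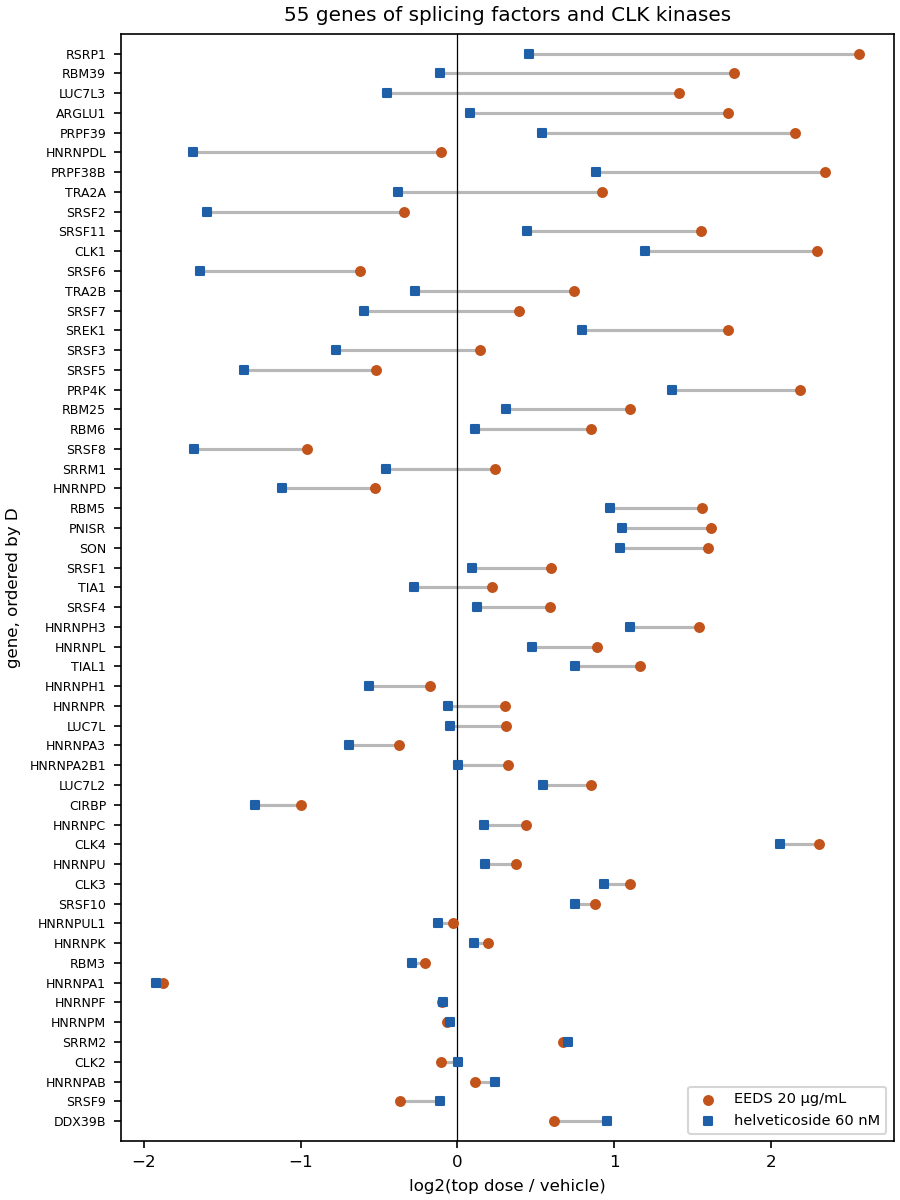
Log2 ratio of top dose to vehicle (x axis) for 55 genes of splicing factors and CLK kinases (y axis, ordered by D), with EEDS 20 μg/mL as circles and helveticoside 60 nM as squares. D was above 0 for 48 of the 55 genes, and some pairs straddle the zero line (RBM39, TRA2A) while others lie wholly below it (SRSF2, HNRNPDL).

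Other gene groups with many small differences towards a higher EEDS response were histones, zinc fingers and mitotic genes. Of 60 replication-dependent histone genes, whose near-identical copies the probes may not separate, 53 had D above 0. Their median was 0.27 (0.60 from the lowest dose). H2BC6, H2BC26 and H3C15 passed 2-fold (5.0%, against 1.78% of all members), with D of 1.24 for H2BC26 and 1.06 for H3C15. Of 285 ZNF zinc finger genes, most of them transcriptional repressors, 14 passed 2-fold upward (4.91%, against 1.78% of all members) and 1, ZNF519 (-1.80, and -0.62 with the signal as scanned), downward (1.22% of all members). ZNF184 stood at 7.20 and 7.62 on the EEDS arrays and at 7.12 and 5.74 on the helveticoside arrays (D 1.80). The zinc finger median was 0.15 from the vehicle but -0.07 from the lowest dose. Of 38 mitotic genes 33 had D above 0 (median 0.24, and 0.04 from the lowest dose). The kinetochore genes CENPE and CENPF had D of 1.12 and 1.14, which turned to -1.34 and -0.40 with the second baseline.

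Targets of ATF4, the factor of the integrated stress response that drives amino acid supply, mostly had a lower EEDS than helveticoside response. Of 18 genes 13 had D below 0 and the median was -0.45. CHAC1, GPT2 and DDIT4 passed 2-fold downward (16.7%, against 1.22% of all members), and 1 gene did upward (5.56%, against 1.78%). From the lowest-dose baseline the median was -1.34. CHAC1 stood at 8.66 and 8.45 on the EEDS arrays and at 8.44 and 10.71 on the helveticoside arrays, so that it was 4.81-fold higher with helveticoside 60 nM and near its vehicle level with EEDS 20 μg/mL (D -2.48). Its course was not monotonic. At the lowest doses CHAC1 stood at 11.47 with EEDS and 9.38 with helveticoside, so EEDS was then the higher. At the middle doses it stood at 12.23 and 12.26, and the lower EEDS level appeared between the middle and the top dose. D of CHAC1 from the lowest-dose baseline (-4.36) thus also counts the earlier rise with EEDS. GPT2, a mitochondrial alanine aminotransferase, had a similar course. It stood at 10.33 with EEDS and 8.70 with helveticoside at the lowest doses, at 11.12 and 10.89 at the middle doses and at 8.35 and 9.20 at the top doses (D -1.19). DDIT4, an inhibitor of mTORC1, fell 4.37-fold with EEDS and 2.08-fold with helveticoside (D -1.07, but -0.99 with the deposited table and -0.91 with the helveticoside ratios scaled).

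The transcription factor of this pathway that promotes cell death went the other way. DDIT3 (CHOP) stood at 7.20 and 11.99 on the EEDS arrays and at 6.85 and 9.87 on the helveticoside arrays (D 1.77), but D was -0.24 from the lowest-dose baseline. ATF4 itself had 0.54 and -0.17. TRIB3, PHGDH and VLDLR had D of -0.79, -0.81 and -0.78, whereas ASNS, the asparagine synthetase gene, rose almost alike (2.76 and 3.05 log2 units). Related genes of amino acid supply lay on the same side. PSPH, the last enzyme of serine synthesis, stood at 12.20 and 11.02 on the EEDS arrays and at 12.11 and 12.30 on the helveticoside arrays (D -1.37), the neutral amino acid carrier SLC1A4 had a D of -1.10 (-0.16 with the deposited table and -0.67 with the signal as scanned), and 16 of 19 aminoacyl-tRNA synthetase genes had D below 0 (median -0.20, and -0.28 from the lowest dose). XBP1, a factor of the unfolded protein response, had levels of 13.98, 12.84, 13.63 and 13.54 (D -1.05). The endoplasmic reticulum chaperone genes listed with it had a median of 0.03.

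Several genes with low D fell with both agents but further with EEDS. FZD8, a Wnt receptor, fell 8.43-fold with EEDS and 2.56-fold with helveticoside (D -1.72), and the matrix protein gene SMOC1 fell 6.76-fold and 2.05-fold (D -1.72). A second probe of SMOC1, for another transcript, changed by -0.38 with EEDS and 0.21 with helveticoside (D -0.59). LINC00473, a noncoding RNA abundant in LKB1-deficient lung cancer lines such as A549, stood at 14.35 and 10.80 on the EEDS arrays and at 14.34 and 12.28 on the helveticoside arrays (D -1.49). A second noncoding RNA, LINC00173, fell 12.5-fold and 3.92-fold (D -1.68, and -0.93 with the signal as scanned). HLA-DMB, which loads peptides on class II molecules, fell from 11.97 to 6.05 with EEDS and from 11.70 to 7.35 with helveticoside (D -1.57, and -0.92 with the helveticoside ratios scaled). DGKG, a diacylglycerol kinase, stood at 8.01, 5.63, 7.73 and 7.05 (D -1.70, and -0.90 with the signal as scanned).

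Other genes of this side were above their vehicle level with helveticoside and below it, or less than 2-fold above it, with EEDS. CACNG4, a subunit gene of calcium channels and AMPA receptors, had the lowest D of all members (-2.63). It stood at 7.18 and 6.62 on the EEDS arrays and at 6.27 and 8.34 on the helveticoside arrays, and D was -1.38 already at the lowest doses. ABCG1, a cholesterol exporter, rose 4.67-fold with helveticoside and 1.72-fold with EEDS (D -1.44, and -0.76 with the deposited table). EVX1, a homeobox gene, had levels of 12.38, 10.80, 13.26 and 13.67 (D -1.98). SIK1, a kinase induced by intracellular sodium in some cells, had levels of 13.41, 12.96, 13.12 and 13.77 (D -1.10, and -0.68 from the lowest-dose baseline).

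Of 10 measured genes of the sodium pump, the target of the glycoside, and its FXYD regulators, 3 had D above 0 and the median D was -0.33. It was -0.30 from the lowest dose, -0.54 with 75th-percentile scaling and -0.44 with the helveticoside ratios scaled. None of the 10 passed 2-fold, but since 3% of all members did so in either direction, a count of 0 in this or the other short lists of the paragraph says little. ATP1B1, a beta subunit gene, was higher with both agents (1.19 and 1.35 log2 units). Of 26 NRF2 targets, the genes of the antioxidant response, none passed 2-fold and the median was -0.01. None of 24 p53 targets passed it either (median 0.18, and -0.17 from the lowest dose), nor did any of 15 liver-type genes that A549 cells express (median -0.39, and -0.23). Among 83 cytosolic ribosomal protein genes the median was -0.02, and among 37 proteasome genes 0.03. For 11 genes of metallothioneins and zinc handling the median was -0.36, with 2 above 0, and the metallothioneins share sequence that the probes may not separate.

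Lipid and energy metabolism held single differences in both directions. ACADSB, an enzyme of short branched-chain acyl-CoA oxidation, fell 5.21-fold with EEDS and 10.9-fold with helveticoside (D 1.07). OAZ2, an antizyme that limits polyamines, was lower with helveticoside (D 1.04). PPARA, a nuclear receptor of fatty acid oxidation, had levels of 6.55, 5.95, 6.34 and 6.90 (D -1.16). The phosphofructokinase gene PFKL had a D of -1.03, but -0.44 from the lowest-dose baseline, and its helveticoside vehicle array stood 1.15 log2 units above the EEDS vehicle array. The differences of ACADSB, OAZ2 and PPARA also fell below 2-fold with the signal as scanned (0.64, 0.95 and -0.66) and with the deposited table (0.04, 0.83 and -0.76).

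Several genes of no list stood at the 2 ends of D. CFP, GORAB, MTBP, LILRB3, ADGRA2 and OR10A5 were dim, with mean levels of 6.34 to 7.56 on the 4 arrays, among the 2954 dimmest members (up to 8.48), and so was SOCS1 (7.05). RINL, EID2B and LINC02817 lay above that limit, with mean levels of 9.32, 8.67 and 9.08. CFP, which encodes properdin, a plasma protein of the complement cascade, stood at 5.30 and 6.96 on the EEDS arrays and at 7.15 and 5.96 on the helveticoside arrays (D 2.85), and the 2 vehicle arrays differed by more than the 2 treated ones. GORAB and MTBP had D of 2.40 and 2.12, which shrank to 0.36 and 0.62 with the lowest-dose baseline. RINL and LILRB3, a leukocyte receptor gene, kept 3.01 and 2.15 from D of 2.27 and 2.15. RINL fell 3.61-fold with helveticoside and stood near its vehicle level with EEDS (0.42 log2 units). At the other end stood the adhesion receptor gene ADGRA2 (-2.13), the olfactory receptor gene OR10A5 (-2.10), EID2B (-1.77, and -0.71 by a second probe) and LINC02817 (-1.79). Of these, EID2B and LINC02817 were near 0 at the lowest and middle doses (between -0.16 and 0.20), whereas OR10A5 already had -2.09 at the middle doses.

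A gene measured on 3 of the 4 arrays has only a bound on D, computed with the lowest detected signal of the array in question. There were 753 such genes, of which 40 had a bound past 2-fold upward and 34 downward. These genes lay at the detection limit of 1 array. Among members, the dimmest were also past 2-fold most often (5.69%, against 3% of all members). FAM177B stood at 9.46 on the EEDS vehicle array, 9.92 on the helveticoside vehicle array and 9.48 with helveticoside 60 nM, and was not well above background with EEDS 20 μg/mL, so its EEDS response was at least 18.5-fold lower than its helveticoside response. CBLN2 and ACOT4, an acyl-CoA thioesterase gene, were also not well above background with EEDS 20 μg/mL (at least 7.26-fold and 4.10-fold lower). In the other direction ITGB1BP2 and ARAP2 were not well above background with helveticoside 60 nM (at least 8.09-fold and 7.83-fold higher). For ABL2, a tyrosine kinase gene, and for GPR75 and TNNC2 the undetected array was the EEDS vehicle (at least 6.01-fold, 6.31-fold and 5.07-fold higher). For MINDY4 and ZSCAN1 it was the helveticoside vehicle (at least 5.86-fold and 4.47-fold lower). The other 6484 genes were well above background on fewer than 3 arrays and have no value.

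Promoter letters were compared between the groups as a description. Of the members, 9537 had a RefSeq promoter window of 300 bases, among them 161 with D of at least 1 and 102 with D of at most -1. The cyclic AMP response element TGACGTCA, a palindrome, was found in 7.45% of the first group, in 0.98% of the second and in 3.30% of all members. These shares rest on 12 of 161 and 1 of 102 promoters. Among genes past 2-fold with both baselines they were 5.36% (3 of 56) and 2.27% (1 of 44). CCAAT boxes were found in 32.3%, 43.1% and 37.0%, TATA boxes in 9.32%, 7.84% and 6.14%, and NF-kappa B sites in 6.83%, 2.94% and 4.56%. Dioxin response elements (TNGCGTG) had shares of 9.94%, 4.90% and 7.23%, and EGR sites of 15.5%, 21.6% and 15.3%. GC boxes were found in 66.5%, 68.6% and 69.3%, and antioxidant response elements in 16.1%, 12.7% and 15.0%. AP-1 sites (TGANTCA) had shares of 4.97%, 4.90% and 4.52%, and E-boxes (CACGTG) of 8.07%, 3.92% and 10.1%. CArG boxes were rare throughout (1.24%, 0.00% and 1.03%), as was the C/EBP-ATF element printed for CHAC1 (1.24%, 0.98% and 1.67%). The median GC content was 64.0%, 65.8% and 65.3%. Of 212 long noncoding RNA genes, 7 passed 2-fold upward (3.30%) and 9 downward (4.25%), and of 11379 protein-coding genes 200 (1.76%) and 128 (1.12%) did. Within the 2954 dimmest members the counts were 5 and 6 of 103 noncoding genes (4.85% and 5.83%) and 94 and 58 of 2778 coding genes (3.38% and 2.09%). The difference between these shares was not tested.

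Only the dose series allowed a test of a difference between agents. A limma fit with a slope over the 4 dose steps for each series called 0 of 11816 genes for a difference of slopes after Benjamini-Hochberg adjustment (smallest adjusted p = 1), and 96 genes (0.812%) had an unadjusted p under 0.05. A fit chosen after seeing the data took the difference between the agents at each step and regressed it on dose as a share of the top dose. It called 0 genes as well, with 937 genes at an unadjusted p under 0.05 and a smallest adjusted p of 0.402 by limma. That value belonged to SOCS1, whose difference between agents grew by 2.36 ± 0.20 (SE) log2 units from vehicle to top dose. The same quantity was 2.24 ± 0.24 for RSRP1, 2.03 ± 0.22 for RBM39, 3.13 ± 0.62 for FOS, 2.74 ± 0.63 for EGR1, -3.37 ± 0.83 for CHAC1 and -1.80 ± 0.22 for DGKG. For CENPE it was -0.02 ± 0.95 and for DDIT3 1.04 ± 0.98. These genes were picked from the results, most of them for a large D. On this dose scale the top-dose pair of arrays largely sets the slope. The SE comes largely from the lower points and does not measure error in the 2 top-dose arrays. For SOCS1 these lower points were dim and not all well above background. Both fits count any departure from a straight line over dose as scatter, beside array error. FOS and CHAC1, for example, did not follow a line within a series. In the first limma fit, 0.812% of genes with an unadjusted p under 0.05 is far fewer than that threshold passes without any difference. No single gene was thus shown to differ between the agents beyond the scatter about these lines. A lack of calls does not show that the responses were equal.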

How the data were processed

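RNA of 3 cultures was pooled per condition, amplified, labelled and hybridised to 1 one-colour Agilent whole human genome array. The authors deposited, per spot, the scanner software's intensity values (median signal, local background and a background-subtracted processed signal) with its detection calls, and a table of processed intensity values that had been quantile-normalised within each series. Here control spots and spots with an outlier flag were left out, and the mean processed signal of each probe was quantile-normalised over the 8 arrays and expressed as log2. Of 34127 probes, 24824 matched a RefSeq transcript of GRCh38.p14 by accession, and the brightest probe stood for each of 19053 genes. A gene was a member if its probe was well above background on all 4 arrays. No spot was saturated, and 54.5% to 64.9% of probes were well above background per array, fewer in the helveticoside series than in the EEDS series. With 1 array per condition the number of arrays limits the precision.

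D was described by a 2-fold threshold. Genes were named by fixed rules: the 12 largest and 12 smallest D, the 8 in each direction with the largest D under both baselines, genes with opposite responses, the 5 largest shared rises and falls, up to 4 genes of each list past 2-fold or otherwise its extreme gene, and the 5 largest bounds in each direction. Other genes are named for their role in a list. The members, lists and rules were chosen with earlier results of these data known. Dose slopes of the 2 series were compared with limma 3.58.1 (lmFit and eBayes with trend and robust) in R 4.3.3, tested first on simulated data, with Benjamini-Hochberg adjustment over all members. The other steps used Python 3.11.15, numpy 2.4.6 and pandas 2.3.3. Alternatives covered the signal, normalisation, probe choice, detection filter, baseline and threshold. Promoters came from RefSeq, and motifs were searched on both strands of 300 bases. 2 genes of the lists are not reported here.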

Additional observations from a re-analysis of the deposited data

Results flagged for a closer look

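For 3 genes the responses to the agents passed 2-fold in opposite directions. CFP rose by 1.65 log2 units with EEDS 20 μg/mL and fell by 1.20 with helveticoside 60 nM, a difference of 2.85. KCNQ1OT1, a noncoding RNA of an imprinted region, rose by 1.06 and fell by 1.01, a difference of 2.06. ZNF230 rose by 1.02 and fell by 1.04, a difference of 2.05. With 1 array per condition the difference was not tested. In each of the 3 the helveticoside vehicle array stood above the EEDS vehicle array, and from the lowest-dose baseline D was 1.69, 0.67 and -0.84.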

How the results depend on the processing

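The counts of 210 genes with the EEDS response higher and 144 with it lower became 113 and 64 with the signal as scanned, 117 and 67 with normexp background correction, 365 and 409 with the deposited value table, and 601 and 407 when detection on 1 of the 4 arrays was enough. With the lowest-dose baseline 331 genes were lower, with the mean of vehicle and lowest dose 139 were higher, and with 75th-percentile scaling 338 were lower. At 1.5-fold the counts were 930 and 803, and at 4-fold 13 and 4. With EEDS 5 μg/mL in place of 20 μg/mL, 330 were higher. Asking for 2-fold with both baselines, chosen after seeing the data, left 68 and 61. The other alternatives kept both counts within 1.5 times, and no alternative of the slope comparison called a gene. Of the 144 genes, 142 were again lower with 75th-percentile scaling and 105 with the deposited table, and of the 210 genes 161 and 140 were again higher. The cause was not tested. Both alternatives chosen after seeing the data regressed the difference between series on dose, and 617 and 937 genes had an unadjusted p under 0.05 by limma with none called.

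Of 110 named genes, D past 2-fold changed sign for 9 with the lowest-dose baseline: ZNF230 -0.84, DDIT3 -0.24, CXCL3 -0.13, CENPF -0.40, CENPE -1.34, CPT1B -1.25, CLDN15 -0.67, LUC7L3 -0.24, ARGLU1 -0.12. With the mean baseline it did so for CENPE -0.11 and CPT1B -0.010. With EEDS 5 μg/mL against helveticoside 60 nM, a comparison of unequal doses by construction, 43 changed sign, namely FOSB -1.15, FOS -1.99, RINL -0.034, SOCS1 -0.27, EGR1 -3.84, LILRB3 -0.61, RSRP1 -0.10, CHAC1 1.30, SMOC1 0.98, FZD8 0.84, DGKG 0.070, LINC00173 0.45, RBM39 -0.54, JDP2 0.63, ATF3 -1.86, ZFP36 -0.89, PPP1R15A -1.75, NAB2 -1.50, KLF2 -0.42, DUSP8 -0.26, DDIT3 -0.52, GPT2 1.58, DDIT4 1.61, XBP1 0.39, DNAJB4 -0.28, REL -0.75, NFKBIA -0.27, NFKBIE -1.20, IRF1 -1.06, HLA-DMB 2.54, PER1 -1.65, PFKL 0.077, PSPH 0.70, ABCG1 0.16, SNAI1 -0.22, H2BC26 -0.66, H3C15 -0.56, ZNF266 -0.048, LINC00473 0.25, BASP1-AS1 0.085, SLC35B3 0.28, SLC35B4 0.67, SLC1A4 0.85. No other named gene past 2-fold changed sign under the other alternatives, but 24 of the 74 named genes past 2-fold fell below it or changed sign with the lowest-dose baseline, 22 with the signal as scanned, 21 with normexp, 17 with the mean baseline, 13 with the deposited table, 11 with the helveticoside ratios scaled, 8 with 75th-percentile scaling, 5 with quantile normalisation within each series, 1 with the mean of probes and 1 with normalisation over the 4 arrays. Of the 36 named genes under 2-fold, whose D lay closer to 0, at most 7 changed sign under any of these, for example CCN1, from 0.21 to -0.31 with 75th-percentile scaling. Some of the 36 also passed 2-fold, for example HOXB13 with the deposited table (-1.98) and B4GALNT1 with the lowest-dose baseline (1.59). No paired analysis was possible because each condition had 1 array and the labels carry no replicate numbers.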
